A study of Homo sapiens with 6 samples.

Results

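The integrated stress response regulators described here are CHOP, which is encoded by DDIT3, and 9 genes that act with it: ATF4, ATF5, ATF3, NUPR1, TRIB3, PPP1R15A, CHAC1, DDIT4 and SESN2. They were chosen by gene symbol from the deposited count table, where each of the 10 symbols had 1 row among 31762 rows. The table holds RNA-seq libraries of H460, a cell line of human large cell lung carcinoma with the genotype label WT. Total RNA came from 3 control libraries and from 3 libraries of cells given the antidepressant fluoxetine at 20 µM for 24 h. The sources used here do not say whether the control cells received a vehicle, and nothing says that the replicates were separate cultures, so the p-values measure the spread between these libraries, which may be technical.

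In the integrated stress response, kinases that sense unfolded protein, missing amino acids, viral RNA or lack of haem phosphorylate the initiation factor eIF2α. General translation then slows, while a few mRNAs with short reading frames in their leader, ATF4 above all, are translated more. ATF4 protein activates CHOP, ATF3 and genes of amino acid supply, and the same set includes genes that switch the response off again. The study followed ER stress and ATF4 protein in these cells, and the comparison made here asks how the transcripts of the regulators differed between treated and control cells.

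Each library held between 16157507 and 27823667 counts, and every fluoxetine library was shallower than every control library. A count of 3 corresponded to between 0.108 and 0.186 CPM (counts scaled to 1000000 per library). Mitochondrial genes took between 8.13% and 8.89% of the counts. The epithelial keratins KRT8, KRT18 and KRT19 and the mesenchymal genes VIM and FN1 were abundant. Of these, KRT18 fell by 0.72 on the log2 scale after fluoxetine (adjusted p = 0.00162, edgeR), and the other 4 did not pass. The mesenchymal marker CDH2 was far lower than VIM and FN1, with between 58 and 123 counts a library. By contrast, the epithelial markers EPCAM (between 4 and 11 counts a library) and CDH1 (between 0 and 1) were almost absent. The lung lineage factor NKX2-1 had between 1 and 9 counts. Of markers of other cell types, PTPRC of leukocytes had between 0 and 2 counts and PECAM1 of endothelium between 0 and 1. The fibroblast markers were divided: COL1A1 had between 59 and 118 counts and PDGFRB between 65 and 121. COL1A2 had between 0 and 2 and DCN between 1 and 8.

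DDIT3, ATF3 and TRIB3 had more RNA after fluoxetine, as did NUPR1, which only the fluoxetine libraries brought into the test. ATF4 itself, ATF5, PPP1R15A, CHAC1, DDIT4 and SESN2 did not pass the test. All 10 genes had enough counts to be tested by edgeR's quasi-likelihood test, in which a gene passed at a Benjamini-Hochberg adjusted p under 0.05 over 15646 tested genes. Of the 10, 4 passed as higher, 0 as lower and 6 did not pass. In 15 alternative fits, with other settings or with libraries left out, DDIT3 and ATF3 always passed and TRIB3 passed in 9. Over all tested genes 13.1% passed in either direction, 7.76% as higher and 5.32% as lower. With a fold change of at least 2, 2 of the 10 passed, DDIT3 and NUPR1, both higher. Of all tested genes, 1.39% passed in this way in either direction and 1.25% as higher. Before adjustment 5 of the 10 had p under 0.05, against 28.7% of all tested genes. Of the 10, 9 reached the filter on low counts in every library and 3 of these 9 passed, while NUPR1 reached it only in the fluoxetine libraries. The median log2 fold change was 0.44 for the 10 genes and 0.03 for all tested genes. The counts over the 10 genes and this median include NUPR1, whose direction was set by the filter. In bulk RNA, a change in RNA per cell and a change in the number of cells that express a gene cannot be told apart.

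**Figure D1:**
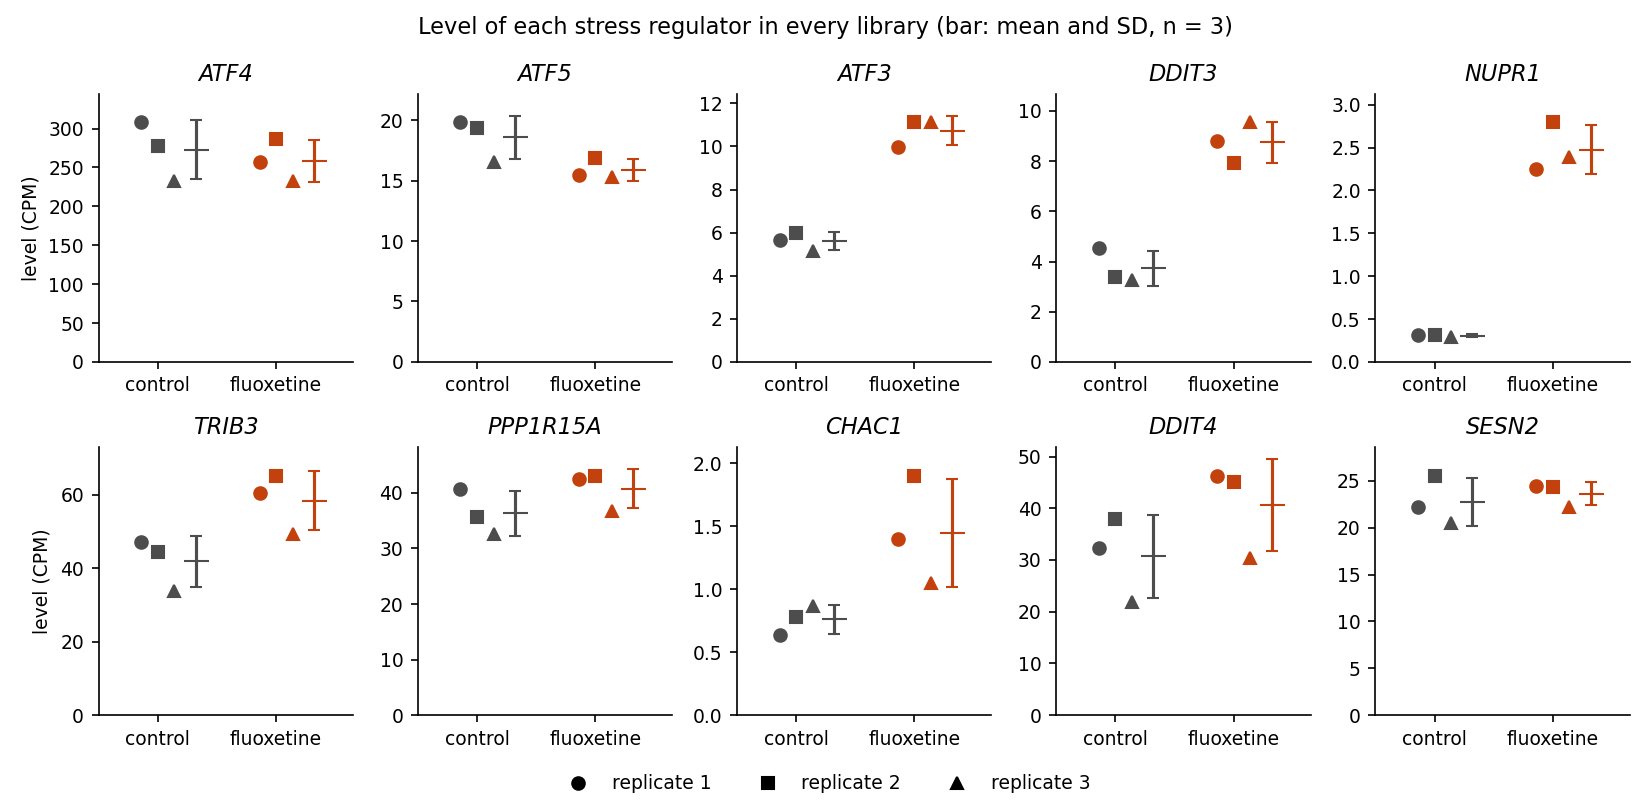
Level of each of the 10 genes in CPM (vertical axes, from 0) in the control and fluoxetine libraries; points are libraries, with 1 marker shape per replicate number, and bars give the mean and SD of 3 libraries. The fluoxetine points of DDIT3, ATF3, NUPR1, TRIB3 and CHAC1 lie above all control points, and those of the other 5 genes overlap with them.

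**Figure D2:**
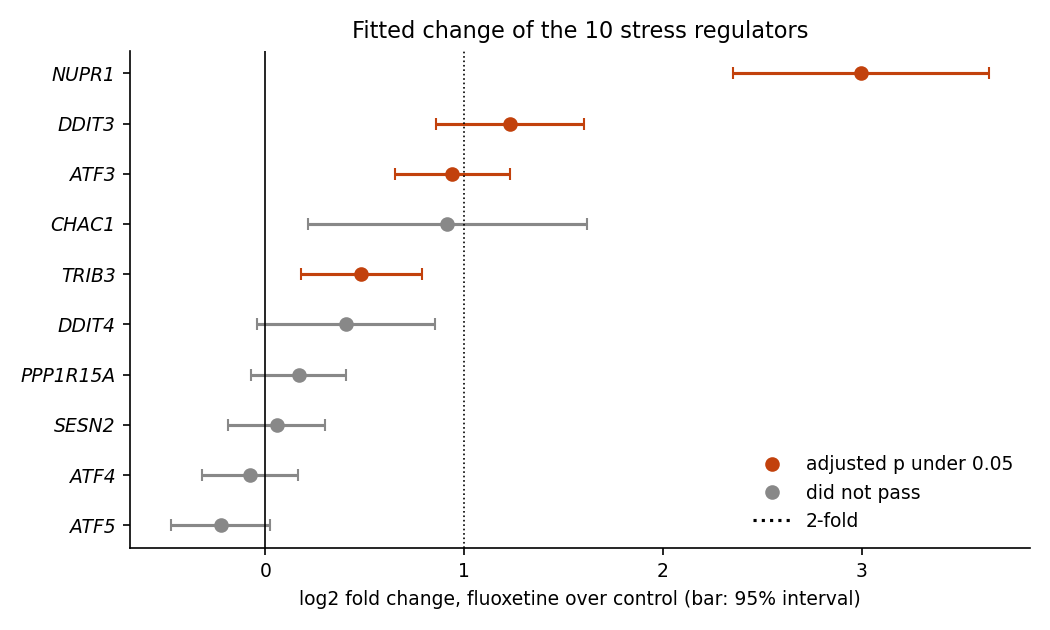
Log2 fold change of fluoxetine over control (horizontal axis) with its 95% interval for the 10 genes, coloured by whether the adjusted p was under 0.05. The intervals of NUPR1, DDIT3, ATF3, TRIB3 and CHAC1 lie above 0, and CHAC1 did not pass after adjustment.

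ATF4 is the bZIP transcription factor at the centre of the response, controlled mainly at its translation. ATF4 (ENSG00000128272, chr22:39519695-39522685, plus strand) was measured at 308, 278 and 233 CPM in control replicates 1 to 3 and at 257, 287 and 232 CPM in the fluoxetine replicates. Replicate 3 was the lowest of each group, and the groups overlapped. The log2 fold change was -0.08 with a standard error of 0.11, a 95% interval from -0.32 to 0.16 and an adjusted p = 0.674 in edgeR. ATF4 did not pass in any of 15 alternative fits. Its processed pseudogenes in the table, ATF4P2, ATF4P3 and ATF4P4, had at most 4 counts in a library.

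ATF5 is a related bZIP factor whose mRNA also carries short reading frames upstream of the main one. ATF5 (ENSG00000169136, chr19:49928702-49933935, plus strand) stood at 19.8, 19.3 and 16.6 CPM in the controls and at 15.5, 16.9 and 15.3 CPM after fluoxetine. The groups overlapped, through control replicate 3 and fluoxetine replicate 2. The log2 fold change was -0.22 ± 0.11 (SE), with an interval from -0.47 to 0.03 and an adjusted p = 0.224 in edgeR. Without control replicate 3 it was -0.34 with an adjusted p = 0.0441. Of its exon bases, 21.2% lie over exons of NUP62 on the other strand, and the log2 fold change of NUP62 was -0.15 (adjusted p = 0.305, edgeR). IL4I1 on the other strand and the microRNA gene MIR4751 on the same strand cover 2.54% and 2.51%, and AC011452.1 on the other strand shares no exon base with ATF5. None of IL4I1, MIR4751 and AC011452.1 had a row used here.

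CHOP is the bZIP factor that carries prolonged ER stress towards cell death and activates PPP1R15A and TRIB3. DDIT3 (ENSG00000175197, chr12:57516588-57520517, minus strand) was measured at 4.54, 3.39 and 3.28 CPM in the controls and at 8.80, 7.91 and 9.55 CPM in the fluoxetine libraries. Every fluoxetine library lay above every control library, on counts of 65 to 100 and 133 to 164. Its mean rose from 3.73 ± 0.697 to 8.75 ± 0.821 CPM (SD, n = 3), which in the fit was a log2 fold change of 1.23 ± 0.17 (SE) with an interval from 0.86 to 1.60 and an adjusted p = 0.00142 in edgeR. It passed in all 15 alternative fits, and with 1 library left out its log2 fold change ranged from 1.10 to 1.36.

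The end of DDIT3 lies over the end of MARS, the methionyl-tRNA synthetase gene on the other strand. Exons of MARS cover 27.2% of the exon bases of DDIT3. MARS had a mean of 3279 counts a library, and its log2 fold change was -0.17 (adjusted p = 0.170, edgeR), which is opposite in sign to that of DDIT3. Whether the authors' counting used strand is not given in the sources used here, so reads from the overlap cannot be assigned to 1 of the genes. At the other end, exons of MBD6 on the other strand cover 4.44% of the exon bases of DDIT3, and MBD6 had a log2 change of 0.06 (adjusted p = 0.750, edgeR). The transcript AC022506.1 covers 8.03% on the same strand, with no row used here. The microRNA gene MIR616 lies in an intron of DDIT3 on the same strand and was too scarce to be tested, at 3, 7 and 4 counts in the controls and 19, 9 and 11 after fluoxetine.

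ATF3 is an early stress-induced bZIP factor downstream of ATF4. ATF3 (ENSG00000162772, chr1:212565334-212620777, plus strand) stood at 5.67, 5.99 and 5.15 CPM in the controls and at 9.96, 11.1 and 11.1 CPM after fluoxetine. The groups did not overlap, and within each group the libraries lay close together. ATF3 rose from 5.60 ± 0.424 to 10.7 ± 0.672 CPM (SD, n = 3), with a log2 fold change of 0.94 ± 0.13 (SE), an interval from 0.65 to 1.23 and an adjusted p = 0.00158 in edgeR. It passed in all 15 alternative fits and reached a fold change of 2 in none of them.

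NUPR1 is a small stress-induced chromatin-associated protein that cooperates with ATF4. NUPR1 (ENSG00000176046, chr16:28532708-28539174, minus strand) was scarce in the controls at 0.317, 0.313 and 0.288 CPM, and stood at 2.25, 2.80 and 2.39 CPM after fluoxetine. These are 7, 6 and 8 counts against 37, 47 and 41, with no overlap. NUPR1 rose by 3.0 ± 0.29 on the log2 scale (SE), a fold change of 7.98 with an interval from 5.11 to 12.5 and an adjusted p = 1.47e-04 in edgeR. The filter asked for 0.549 CPM in at least 3 libraries, which NUPR1 reached in 0 control and 3 fluoxetine libraries, so the fluoxetine libraries alone brought it into the test, and a gene that enters in this way had to differ. With 1 library left out its log2 fold change lay between 2.87 and 3.04, and it passed in all 14 alternative fits that tested it. All of these except the fit with no filter again used that low-count filter, so the passes are not separate support for its rise. Counting error alone gives a coefficient of variation of 38.0% for a control library, so the control level is the less certain side of this fold change.

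TRIB3 is a pseudokinase that binds AKT and restrains ATF4 and CHOP. TRIB3 (ENSG00000101255, chr20:362835-397559, plus strand) stood at 47.2, 44.5 and 34.0 CPM in the controls and at 60.6, 65.3 and 49.5 CPM in the fluoxetine libraries. Replicate 3 was the lowest of each group, and fluoxetine replicate 3 lay just above control replicate 1. TRIB3 rose from 41.9 ± 6.99 to 58.5 ± 8.12 CPM (SD, n = 3), with a log2 fold change of 0.48 ± 0.14 (SE) and an adjusted p = 0.0443 in edgeR. The call was lost without control replicate 2 (adjusted p = 0.126), control replicate 3 (0.0642), fluoxetine replicate 1 (0.205) or fluoxetine replicate 2 (0.140), and with all libraries thinned to equal depth (0.0543).

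PPP1R15A, known as GADD34, directs a phosphatase to eIF2α and so ends the response. PPP1R15A (ENSG00000087074, chr19:48872392-48876057, plus strand) stood at 40.6, 35.7 and 32.6 CPM in the controls and at 42.4, 43.1 and 36.7 CPM after fluoxetine. The groups overlapped, through control replicate 1 and fluoxetine replicate 3. The log2 fold change was 0.17 ± 0.11 (SE), with an interval from -0.07 to 0.41 and an adjusted p = 0.354 in edgeR.

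CHAC1 degrades glutathione and is a target of ATF4. CHAC1 (ENSG00000128965, chr15:40952962-40956519, plus strand) was scarce, at 0.635, 0.781 and 0.865 CPM in the controls and 1.40, 1.90 and 1.05 CPM after fluoxetine. Every fluoxetine library lay above every control library, on counts of 14 to 24 and 18 to 32. The log2 fold change was 0.92 ± 0.32 (SE), with an interval from 0.22 to 1.62, and the adjusted p = 0.0842 in edgeR did not pass. It passed in 0 of the 15 alternative fits.

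DDIT4, known as REDD1, and SESN2 restrain mTORC1 under stress. DDIT4 (ENSG00000168209, chr10:72273920-72276036, plus strand) stood at 32.4, 37.8 and 21.9 CPM in the controls and at 46.3, 45.1 and 30.3 CPM after fluoxetine, with a log2 fold change of 0.41 ± 0.20 (SE), an interval from -0.04 to 0.85 and an adjusted p = 0.218 in edgeR. Replicate 3 was the lowest in each group, and the groups overlapped. Without replicate 3 in both groups, a choice made after seeing these values, the log2 fold change was 0.38 with an adjusted p = 0.0191 in edgeR, and with no filter on low counts it was 0.37 with an adjusted p = 0.0179. An annotated antisense RNA, DDIT4-AS1, covers 41.2% of the exon bases of DDIT4, with no row used here. DDIT4 passed in 3 of 15 alternative fits, these 2 and a replicate block (adjusted p = 3.81e-04, edgeR). The block treats same-numbered libraries as pairs, which the sources used here do not state. SESN2 (ENSG00000130766, chr1:28259527-28282491, plus strand) stood at 22.2, 25.6 and 20.5 CPM in the controls and at 24.4, 24.3 and 22.2 CPM after fluoxetine. Its groups overlapped, and the log2 fold change of 0.06 ± 0.11 (SE) had an interval from -0.19 to 0.30 and an adjusted p = 0.772 in edgeR.

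The fluoxetine values of 5 of the 10 genes lay above all control values, for DDIT3, ATF3, NUPR1, TRIB3 and CHAC1, and those of 0 genes lay below. NUPR1 came into the test through the fluoxetine libraries alone, so its place above the controls was set by the filter. Over all tested genes the groups did not overlap for 31.9% in either direction for 17.5% as higher and for 14.4% as lower. Control replicate 3 had the lowest control level of 9 of the 10 genes, all but CHAC1, and of 36.4% of all tested genes. Fluoxetine replicate 3 had the lowest fluoxetine level of 7 of the 10, and of 33.7% of all tested genes.

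Per kilobase of exon, ATF4 was by far the most abundant of the 10, with a mean level of 109 CPM per kilobase in the controls and 103 after fluoxetine. DDIT4, TRIB3 and PPP1R15A followed in the controls at 14.9, 12.2 and 11.7 CPM per kilobase, and their ranges over libraries overlapped. SESN2 at 6.60 and ATF5 at 6.29 CPM per kilobase also overlapped with each other. DDIT3 at 2.86, ATF3 at 1.39, CHAC1 at 0.369 and NUPR1 at 0.0539 CPM per kilobase closed the order. The exons of NUPR1 cover 5674 bases in all, for a protein of 82 residues and a leader of 267 bases. Its level per kilobase therefore depends on the length used. After fluoxetine DDIT3 reached a mean of 6.70 CPM per kilobase, where its range overlapped with that of SESN2 and lay above that of ATF5. TRIB3 then lay between 14.4 and 19.0 CPM per kilobase, above the range of PPP1R15A, from 11.9 to 13.9.

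A ratio within a library removes any factor that both of its genes share there, and keeps the spread that they do not share. There were 14.7, 12.2 and 14.1 DDIT3 counts per 1000 ATF4 counts in the controls, and 34.3, 27.6 and 41.1 after fluoxetine. The ratio was higher in every fluoxetine library, by 1.31 on the log2 scale, and the SD of the log2 ratio was 0.141 in the controls and 0.287 after fluoxetine. For TRIB3 there were 153, 160 and 146 counts per 1000 ATF4 counts in the controls, and 236, 228 and 213 after fluoxetine. This ratio was also higher in every fluoxetine library, by 0.56 on the log2 scale, and the SD of the log2 ratio was 0.0663 in the controls and 0.0758 after fluoxetine. For DDIT3 against PPP1R15A there were 112, 94.9 and 101 counts per 1000 in the controls and 207, 183 and 260 after fluoxetine, a log2 difference of 1.07. The SD of this log2 ratio was 0.117 in the controls and 0.256 after fluoxetine. Each of the 3 ratios had p = 0.1 in a two-sided exact permutation test, adjusted p = 0.1 over the 3, which is the smallest p that 3 libraries against 3 allow. With any 1 library left out the differences lay between 1.17 and 1.46, between 0.53 and 0.60, and between 0.93 and 1.182.

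**Figure D3:**
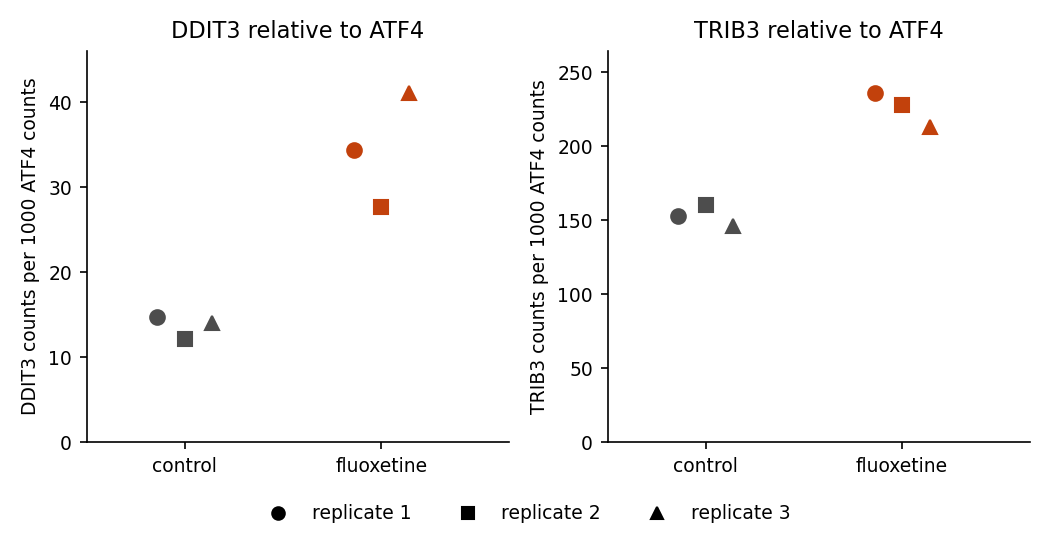
DDIT3 counts (left) and TRIB3 counts (right) per 1000 ATF4 counts in each library (vertical axes, from 0), with 1 marker shape per replicate number. The 3 fluoxetine points lie above the 3 control points in both panels, between 27.6 and 41.1 against 12.2 and 14.7 for DDIT3, and between 213 and 236 against 146 and 160 for TRIB3.

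The genes whose pattern over the 6 libraries was most like that of DDIT3, by the root mean square difference of log2 CPM centred on the control mean, were KIAA0513 at 0.0535, ITGA7 at 0.0934, ZNF805 at 0.128, SNN at 0.131 and PBXIP1 at 0.138. Their log2 fold changes were 1.16 for KIAA0513, 1.23 for ITGA7, 1.29 for ZNF805, 1.23 for SNN and 1.30 for PBXIP1. Because the genes were chosen by likeness over these same libraries, these values had to lie near that of DDIT3. ZNF805 had between 9 and 28 counts a library and passed in 9 of the 14 alternative fits that tested it, and the other genes passed in all 15.

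Windows around the annotated starts were searched because the bZIP factors among these genes bind known short motifs, and the matches are shown with 11 bases on each side or fewer. RefSeq windows from 250 bases before to 50 after a start (GRCh38.p14) were available for 9 of the 10 genes, 16 windows in all, and none was matched for NUPR1. The capitals mark the match, each sequence is written 5′ to 3′ on the strand of the gene, and both strands were searched. The C/EBP-ATF response element TGATGNAA, which dimers of ATF4 or CHOP with C/EBP factors bind, was found in ATF3 and CHAC1. The cAMP response element TGACGTCA was found in PPP1R15A, and the AP-1 site TGANTCA in DDIT3 and ATF5.
ATF3, chr1:212565205-212565234, plus strand: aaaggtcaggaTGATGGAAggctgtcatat
CHAC1, chr15:40953251-40953280, plus strand: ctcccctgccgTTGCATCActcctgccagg
PPP1R15A, chr19:48872352-48872381, plus strand: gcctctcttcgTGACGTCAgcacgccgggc
DDIT3, chr12:57520738-57520766, minus strand: gcgcgcgcgcaTGACTCAcccacctcctc
ATF5, chr19:49928707-49928735, plus strand: ggagagtgctgTGACTCAtgctggactct

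The match in CHAC1 reads in the motif's direction on the other strand. Of the windows of 10195 tested genes, 2.82% held the C/EBP-ATF response element, 3.82% the cAMP response element and 7.22% the AP-1 site, and over all 35116 windows the shares were 3.62%, 1.85% and 7.71%. The ER stress response element, present in the windows of 0.157% of those genes, and the CLEAR element TCACGTGA, present in 2.21%, were not found in these windows of the 9 genes. Genes with and without a match were found on both sides of the test: ATF3 and DDIT3 passed, and CHAC1, PPP1R15A and ATF5 did not.

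Leaders were read from 1 annotated transcript per gene, and they differ among the 10 genes in how many start codons precede the main one. In the transcript used, ATF4 had a leader of 882 bases with 7 upstream ATG codons. Of these, 5 opened a frame that closed before the main start and 2 a frame that ran past it. The RefSeq windows of ATF4 lie between chr22:39520309 and 39520611, inside the gene, which starts at 39519695. The count for ATF4 therefore holds for this transcript only, and leaders from the RefSeq starts were not counted. TRIB3 had 3 upstream ATG codons, DDIT3, ATF5, PPP1R15A and NUPR1 had 2 each, ATF3 and SESN2 had 1 each, and DDIT4 and CHAC1 had 0. In ATF4, ATF5, ATF3 and DDIT3, the bZIP factors of the set, at least 1 upstream frame overlapped the coding sequence. At least 1 upstream ATG codon was present in 8 of the 10 genes, a share of 80.0%, and in 54.7% of 12150 tested genes. The 4 with an overlapping frame compare with 17.5% of those genes. RNA-seq of total RNA does not measure translation.

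The eIF2α kinases, eIF2B subunits and phosphatase partners had 1 of 17 tested genes higher (5.88%) and 3 lower (17.6%), with a median log2 fold change of -0.02. Over all tested genes 7.76% passed as higher and 5.32% as lower, and the median was 0.03; the shares of this list and of those that follow stand beside these, and on lists this short 1 gene moves a share by several percent. EIF2AK3, which encodes the ER stress kinase PERK, stood at 10.2, 11.8 and 13.0 CPM in the controls and 21.4, 21.6 and 23.0 CPM after fluoxetine. The groups lay far apart, and EIF2AK3 rose by 0.91 ± 0.12 on the log2 scale (SE; adjusted p = 0.00101, edgeR), in all 15 alternative fits. EIF2B3 and EIF2B5, subunits of the exchange factor that phosphorylated eIF2 inhibits, fell by 0.41 and 0.38 on the log2 scale. In edgeR their adjusted p-values were 0.0102 and 0.0134, or 0.0673 and 0.0780 without fluoxetine replicate 1. EIF2S1, eIF2α itself, fell by 0.30 (adjusted p = 0.0241, or 0.109 without fluoxetine replicate 1 and 0.111 without fluoxetine replicate 3, edgeR).

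The partners with which ATF4 and CHOP form dimers, and related bZIP factors, had 2 of 19 tested genes higher (10.5%, near the 7.76% over all tested genes) and 0 lower, with a median log2 fold change of 0.14. ATF2, a cAMP response element binding factor, rose by 0.46 and FOS, a subunit of AP-1, by 0.60, with adjusted p-values from edgeR of 0.0175 and 0.0395. ATF2 did not pass without control replicate 1, control replicate 2, fluoxetine replicate 1 or fluoxetine replicate 3, with adjusted p-values between 0.0684 and 0.0946. FOS did not pass without control replicate 2, control replicate 3 or any 1 of the fluoxetine replicates, with adjusted p-values between 0.0598 and 0.196.

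Among targets of ATF4 in amino acid synthesis and transport, 1 of 19 tested genes was higher (5.26%) and 3 were lower (15.8%, against 5.32% over all tested genes), with a median log2 fold change of -0.03. The mitochondrial folate enzyme MTHFD2 fell by 0.30 on the log2 scale, the glutamine transporter SLC1A5 by 0.40 and the proline synthesis enzyme ALDH18A1 by 0.29, with adjusted p-values from edgeR of 0.0170, 0.0194 and 0.0196. None of the 3 passed without fluoxetine replicate 1 or without fluoxetine replicate 3 (adjusted p between 0.0748 and 0.117), and SLC1A5 and ALDH18A1 did not without control replicate 2 (0.0671 and 0.0550). ALDH1L2, another mitochondrial folate enzyme, rose by 0.44 (adjusted p = 0.0494, edgeR), and did not pass without control replicate 1, control replicate 2, fluoxetine replicate 1 or fluoxetine replicate 3 (adjusted p between 0.165 and 0.222), with limma-voom (0.0614) or RLE factors (0.0545), or at equal depth (0.0783). ASNS, asparagine synthetase, was scarce here at 0.515 ± 0.0555 CPM in the controls and 0.972 ± 0.388 CPM after fluoxetine (SD, n = 3), with an adjusted p = 0.155 in edgeR. A same-strand transcript, AC079781.5, covers 44.6% of its exon bases.

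Of the aminoacyl-tRNA synthetases and the tRNA exporter XPOT, 2 of 13 tested genes were higher (15.4%, against 7.76% over all tested genes) and 0 lower, with a median of 0.04. WARS, the tryptophanyl-tRNA synthetase, rose from 238 ± 8.22 to 319 ± 7.37 CPM (SD, n = 3; log2 fold change 0.42, adjusted p = 0.00295, edgeR), in all 15 alternative fits. AARS, the alanyl-tRNA synthetase, rose by 0.37 on the log2 scale (adjusted p = 0.00837, edgeR), and did not pass without control replicate 2 (0.0639), fluoxetine replicate 1 (0.0556) or fluoxetine replicate 3 (0.0809).

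Of secreted and cell death targets of ATF4 and CHOP, 3 of 11 tested genes were higher (27.3%, against 7.76%) and 0 lower, with a median of 0.21. STC2, a secreted glycoprotein, rose from 284 ± 8.59 to 402 ± 10.5 CPM (SD, n = 3; log2 fold change 0.50, adjusted p = 0.00103, edgeR), in all 15 alternative fits. GDF15, a secreted stress cytokine, stood at 23.9, 20.8 and 9.76 CPM in the controls and at 36.9, 40.4 and 28.2 CPM after fluoxetine. Replicate 3 was again the lowest of each group. GDF15 rose by 0.96 on the log2 scale (adjusted p = 0.0397, edgeR), but did not pass without control replicate 2 (0.102), fluoxetine replicate 1 (0.157) or fluoxetine replicate 2 (0.0990), in DESeq2 (0.122) or at equal depth (0.0716). ADM2, a secreted peptide near 1 CPM, had a log2 fold change of 0.98 (adjusted p = 0.0459, edgeR), and passed in 0 of the 6 fits that left out 1 library, where the adjusted p lay between 0.0798 and 0.202. It passed in 4 of all 15 alternative fits, and also failed in DESeq2 (0.116), with RLE factors (0.0507), with no filter (0.0609), at equal depth (0.113) and without replicate 3 in both groups (0.257).

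Autophagy genes under ATF4 and CHOP had 4 of 11 tested genes higher (36.4%, against 7.76%) and 0 lower, with a median of 0.14. SQSTM1, the autophagy receptor p62, rose from 603 ± 47.4 to 1252 ± 66.0 CPM (SD, n = 3; log2 fold change 1.05, adjusted p = 2.33e-05, edgeR), the only 1 of the list past a fold change of 2. WIPI1, a phosphoinositide-binding protein of the phagophore, rose by 0.93 (adjusted p = 7.73e-04, edgeR) and MAP1LC3B, which coats autophagosomes, by 0.43 (adjusted p = 0.00396, edgeR). These 3 passed in all 15 alternative fits. NBR1, another autophagy receptor, rose by 0.34 (adjusted p = 0.0234, edgeR), and did not pass without control replicate 1, control replicate 2, fluoxetine replicate 1 or fluoxetine replicate 3 (adjusted p between 0.106 and 0.156).

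In the ATF6 and IRE1 branch of the unfolded protein response, which runs beside the PERK and ATF4 branch, 2 of 18 tested genes were higher (11.1%, near the 7.76% over all tested genes) and 0 lower, with a median of 0.13. HERPUD1, a factor of ER-associated degradation, rose from 45.3 ± 1.40 to 69.3 ± 1.84 CPM (SD, n = 3; log2 fold change 0.61, adjusted p = 8.31e-04, edgeR). DNAJB9, an ER co-chaperone, rose from 8.80 ± 0.416 to 14.6 ± 1.23 CPM (SD, n = 3; log2 fold change 0.74, adjusted p = 0.00363, edgeR). Both passed in all 15 alternative fits. HSPA5, the ER chaperone BiP, stood at 1943 ± 115 CPM in the controls and 2044 ± 107 CPM after fluoxetine (SD, n = 3), with a log2 fold change of 0.07 and an adjusted p = 0.588 in edgeR.

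Paralogues of the 10 regulators had 2 of 7 tested genes higher (28.6%) and 1 lower (14.3%), against 7.76% and 5.32% over all tested genes. DDIT4L, the paralogue of DDIT4, stood at 38.9, 39.0 and 39.7 CPM in the controls and at 61.6, 62.9 and 59.2 CPM after fluoxetine. The groups were far apart, and DDIT4L rose by 0.64 ± 0.08 on the log2 scale (SE; adjusted p = 7.14e-04, edgeR), in all 15 alternative fits. SESN3, a relative of SESN2, rose by 0.42 (adjusted p = 0.0487, edgeR) although its groups overlapped, and did not pass without control replicate 1, control replicate 2, fluoxetine replicate 1 or fluoxetine replicate 3 (adjusted p between 0.171 and 0.216), with limma-voom (0.0552), RLE factors (0.0506) or library size alone (0.0508), or at equal depth (0.0673). CHAC2, the paralogue of CHAC1, fell by 0.46 (adjusted p = 0.0163, edgeR), and did not pass without control replicate 2 (0.0504), fluoxetine replicate 1 (0.101) or fluoxetine replicate 3 (0.0597). SESN1, TRIB1, TRIB2 and PPP1R15B had log2 fold changes of -0.18, 0.44, 0.04 and 0.02, with adjusted p-values from edgeR of 0.306, 0.108, 0.893 and 0.903. The direction of TRIB2 turned in 5 and that of PPP1R15B in 8 of 15 alternative fits.

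Some of the regulators, SESN2 and DDIT4 among them, are also targets of p53. The list of p53 target genes had 3 of 15 tested genes higher (20.0%, against 7.76%) and 1 lower (6.67%, against 5.32%), with a median of -0.07. TP53INP1, which acts in autophagy and cell death, rose from 7.44 ± 1.50 to 14.4 ± 1.85 CPM (SD, n = 3; log2 fold change 0.95, adjusted p = 0.00504, edgeR), in all 15 alternative fits. ZMAT3, an RNA-binding protein, rose by 0.40 (adjusted p = 0.0242, edgeR), and did not pass without control replicate 1, control replicate 2, fluoxetine replicate 1 or fluoxetine replicate 3 (adjusted p between 0.0865 and 0.154). The exonuclease gene AEN fell by 0.31 (adjusted p = 0.0208, edgeR), and did not pass without control replicate 2, fluoxetine replicate 1 or fluoxetine replicate 3 (adjusted p between 0.0682 and 0.0929). The third that rose was GDF15.

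**Figure D4:**
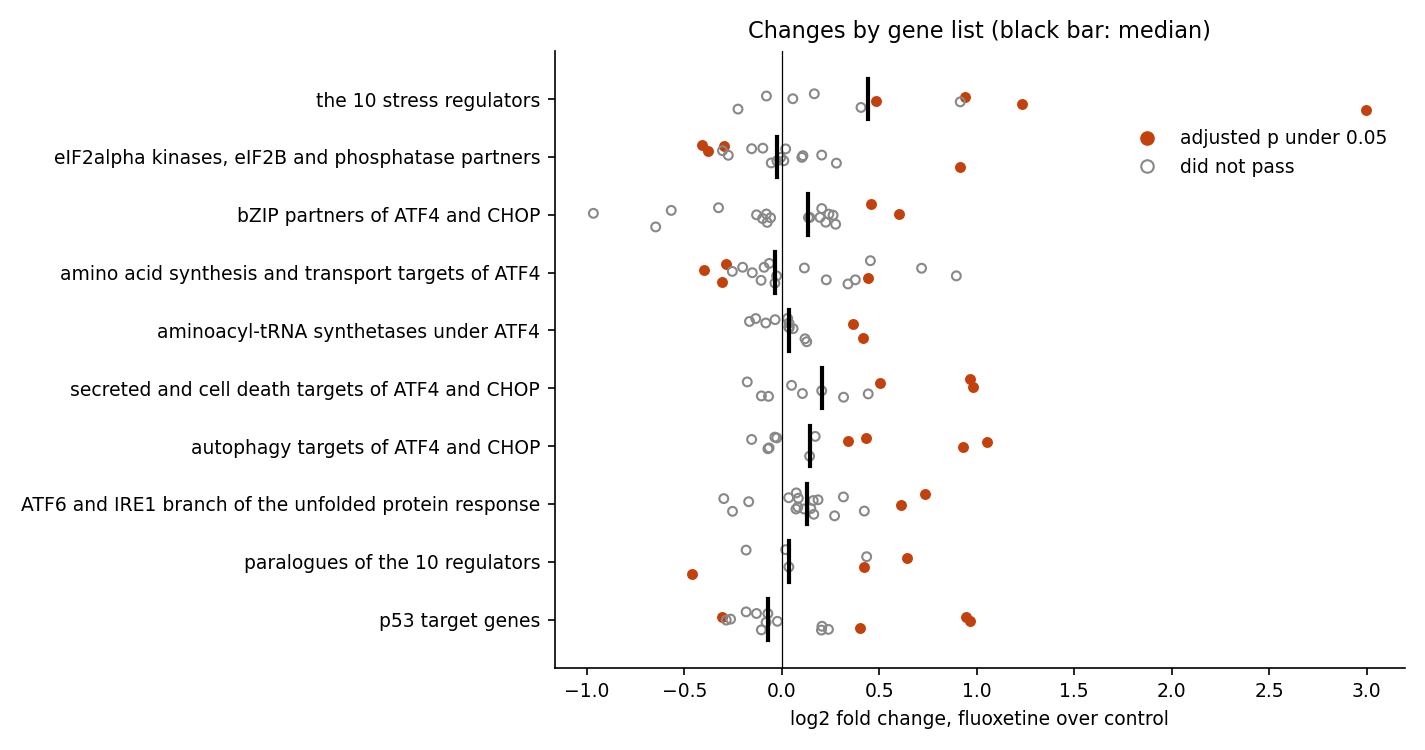
Log2 fold change of fluoxetine over control (horizontal axis) for each tested gene of the 10 regulators and of each list of related genes (rows); filled points had an adjusted p under 0.05, open points did not pass, and the black bar is the median. The medians of the related lists lie between -0.07 and 0.21, and that of the 10 regulators, NUPR1 included, at 0.44.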

How the data were processed

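The authors deposited a table of raw counts per gene for the 6 RNA-seq libraries, with columns of their own log2 fold changes, p-values and adjusted p-values, which were not used here. Per the submitters' processing notes, fastp 0.20.0, HISAT2 2.1.0, HTSeq 0.10.0 and DESeq2 1.18.1 were used. The settings, the use of strand and the genome build are not given in the sources used here. Of the deposited genes, 31635 were found by identifier in GENCODE 29 (GRCh38), and 96.8% of these had the same start and end; DDIT3 did not. HTSeq's usual mode drops reads that lie on more than 1 gene, which would lower genes that overlap others.

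Counts of the libraries were fitted with edgeR 4.0.16 in R 4.3.3 (filterByExpr, TMM factors from 0.985 to 1.02, glmQLFit and glmQLFTest), fluoxetine against control, with no covariate, and 15646 genes were tested. CPM are counts scaled to 1000000 per library after TMM. The standard error is the size of the log2 fold change divided by the square root of F, and intervals are 95% intervals from it. Ratios between genes added 0.5 to each count. Exon length is the union of all GENCODE 29 exons of a gene, so levels per kilobase are low for genes with rare long transcripts. Alternatives were DESeq2 1.42.0, limma-voom (limma 3.58.1), RLE factors, library size only, no filter, at least 10 counts in every library, a replicate block, equal depth, each library left out, a prior count of 2 for ratios and, added after seeing the data, leaving out replicate 3 in both groups.

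The 10 regulators and the gene lists were chosen with earlier results of these data known. The rule named all 10, every paralogue, EIF2AK3 and HSPA5, up to 3 genes past the threshold of each other list by smallest p, overlapping genes and pseudogenes, and the 5 genes most like DDIT3. EIF2S1, ALDH1L2, NBR1 and ASNS were named after their values were seen. BBC3, GDF15, SESN1 and PPP1R15B stand on 2 lists each. The scripts were tested on simulated data. Library pairs within a group differed beyond counting noise (chi-square divided by its degrees of freedom, 3.69 to 25.2), so none was a library deposited again.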

Additional observations from a re-analysis of the deposited data

How the results depend on the processing

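Of 149 values recomputed for the 10 regulators, 138 kept their direction and their side of the threshold, 6 no longer passed, all for TRIB3 (RLE factors, adjusted p = 0.0582 in edgeR, and the 5 fits named with its values), and 4 newly passed, for DDIT4 and ATF5. SESN2 reversed to -0.046 without control replicate 3, with a range from -0.046 to 0.11 over the fits that left out 1 library. Between 3 and 5 of the 10 passed in every alternative. With at least 10 counts in every library 1 of the 10 passed at a fold change of 2, because NUPR1 was not tested there. Leaving out 1 library moved the number of all genes that passed from 2047 to between 572 and 3633, and that of the related lists together from 27 to between 10 and 45.

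Whether same-numbered libraries were paired is not given in the sources used here. The deviations from the group means of same-numbered libraries correlated at 0.030, 0.116 and 0.392 over genes. Control and fluoxetine libraries of different numbers correlated between -0.380 and 0.320, and 4 of the 6 libraries correlated best with their own number. Pairing was not tested further. With a replicate block, 4018 genes passed in all, 46 on the related lists and 5 of the 10 regulators, where DDIT4 passed (log2 fold change 0.41, adjusted p = 3.81e-04, edgeR). PPP1R15B turned to -0.0054 with DESeq2, -0.0054 with RLE factors, -0.015 with no filter and -0.010 at equal depth, and ranged from -0.075 to 0.052 with 1 library left out. TRIB2 turned to -0.036 at equal depth and ranged from -0.017 to 0.047, and HSPA5 ranged from -0.0014 to 0.085, in each case without a passing test. Low counts limit NUPR1, CHAC1, ADM2 and ASNS, each at under 50 counts in every library. Whether ASNS lost reads to the overlapping AC079781.5 was not tested.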
